A study of Mus musculus with 15 samples.

Results

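Transcripts of the 7 genes that make PI3P or convert it to PI(3,5)P2 were examined in mouse tibialis anterior: *Pik3c2a*, *Pik3c2b*, *Pik3c3*, *Pik3r4*, *Pikfyve*, *Fig4* and *Vac14*. They were chosen by the function of their products and matched by symbol to Ensembl identifiers of GRCm38. The rule used no measured value, but the set was drawn up with earlier results of these data known. All 7 were among the 30672 genes of the count table and among the 15533 genes that passed the filter on low counts. Only 4 of them encode lipid kinases (*Pik3c2a*, *Pik3c2b*, *Pik3c3*, *Pikfyve*). *Pik3r4* encodes a regulatory subunit, *Vac14* a scaffold and *Fig4* a phosphatase.

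The study tested tamoxifen (TAM) in a mouse model of X-linked myotubular myopathy, a severe muscle disease caused by loss of the phosphatase MTM1. RNA was sequenced from the tibialis anterior, a lower leg muscle, of 15 male mice of the 129Pas strain at 7 weeks. There were 4 untreated WT mice, 4 WT mice given tamoxifen (WT + TAM), 4 untreated *Mtm1*-/y mice and 3 *Mtm1*-/y mice given tamoxifen (*Mtm1*-/y + TAM). The sources used here do not state the dose, start or duration of treatment, the untreated groups carry no label of a vehicle, and a whole muscle holds vessels, nerve and connective tissue as well as fibres.

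PI3P is a membrane lipid that marks early endosomes and autophagosomes. Class III PI 3-kinase (Vps34, encoded by *Pik3c3*) makes most of it together with its regulatory partner Vps15 (*Pik3r4*), and class II kinases (*Pik3c2a*, *Pik3c2b*) make PI3P and PI(3,4)P2 at the plasma membrane and on endosomes. PIKfyve, held in a complex by Vac14 with the phosphatase Fig4, converts PI3P to the late endosomal and lysosomal lipid PI(3,5)P2, and MTM1 removes the phosphate that the PI 3-kinases add.

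Of the 7 genes, *Vac14* was higher in *Mtm1*-/y than in WT muscle with and without tamoxifen, by 1.87-fold and 1.78-fold. *Pik3c2a* was lower in *Mtm1*-/y + TAM than in WT + TAM muscle, at 0.565 of the level, a call that was lost when most single libraries were left out. The other 5 genes passed the test in neither genotype comparison, and none of the 7 passed it between treated and untreated mice of either genotype.

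Levels are given as CPM, the read count of a gene relative to the total of its library, after scaling by TMM, a method that sets libraries on a common scale from the bulk of their genes, and as mean ± SD over mice. Differences are log2 fold changes from the quasi-likelihood test of edgeR, fitted to all 15 libraries. They were called at a Benjamini-Hochberg adjusted p under 0.05 over the 15533 genes, and the p-values measure spread between mice. The library totals ran from 18042558 to 45823277 counts, and the common biological coefficient of variation was 20.8%. *Mtm1*, the targeted gene, stood at 15.3 ± 0.294 CPM in WT (n = 4) and 16.3 ± 1.87 in WT + TAM (n = 4), against 3.36 ± 0.338 in *Mtm1*-/y (n = 4) and 3.49 ± 0.381 in *Mtm1*-/y + TAM (n = 3), which goes against no genotype label. All 7 listed fibre markers were present in each group. Their summed level was 198000 to 264000 CPM in WT, 197000 to 229000 in WT + TAM, 166000 to 211000 in *Mtm1*-/y and 173000 to 179000 in *Mtm1*-/y + TAM. On the principal components of all genes, WT + TAM replicate 1 and *Mtm1*-/y replicate 1 stood apart from the rest of their groups. The tests of the 7 genes and of the pathway lists were repeated without both. Their changes are given below, for some lists mainly as counts. Marker calls, levels, count ratios and correlations between genes were not examined without both. The 4 group comparisons share libraries, so their results are not independent of each other.

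In WT muscle the 7 transcripts spanned a wide range of levels per kilobase of exon, the scale on which genes can be compared. *Pik3c2b* stood highest at 4.80 CPM per kb, followed by *Pik3c3* at 4.07, *Vac14* at 3.89 and *Fig4* at 3.40. *Pik3r4* was at 1.77, *Pik3c2a* at 0.897 and *Pikfyve* lowest at 0.492 CPM per kb. Among these neighbours only *Pik3c3* and *Vac14* had ranges over the 4 mice that overlapped. Of all genes tested, 24.9% lay below *Pikfyve* and 69.6% below *Pik3c2b* on this scale.

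The order differed in *Mtm1*-/y muscle. *Vac14* stood first there at 6.95 CPM per kb, with a range that overlapped that of *Pik3c2b* at 4.84. In *Mtm1*-/y + TAM muscle *Vac14* was at 6.71 CPM per kb and its range no longer reached that of *Pik3c2b* at 4.46. *Pik3c2a* stood above *Pikfyve* without overlap in both WT groups, but overlapped it in both *Mtm1*-/y groups, with means of 0.695 against 0.519 CPM per kb untreated and 0.554 against 0.525 under tamoxifen. In WT + TAM the first 4 genes overlapped one after another, from *Pik3c2b* at 3.93 to *Fig4* at 3.22 CPM per kb. Dividing by the longest transcript instead of all exons moved 2 genes in WT, 4 in WT + TAM, 2 in *Mtm1*-/y and 6 in *Mtm1*-/y + TAM to another rank. *Pik3r4* and *Fig4* exchanged places in each group. In *Mtm1*-/y + TAM *Pik3c2a* then stood below *Pikfyve*, at 0.766 against 0.897 CPM per kb.

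**Figure D1:**
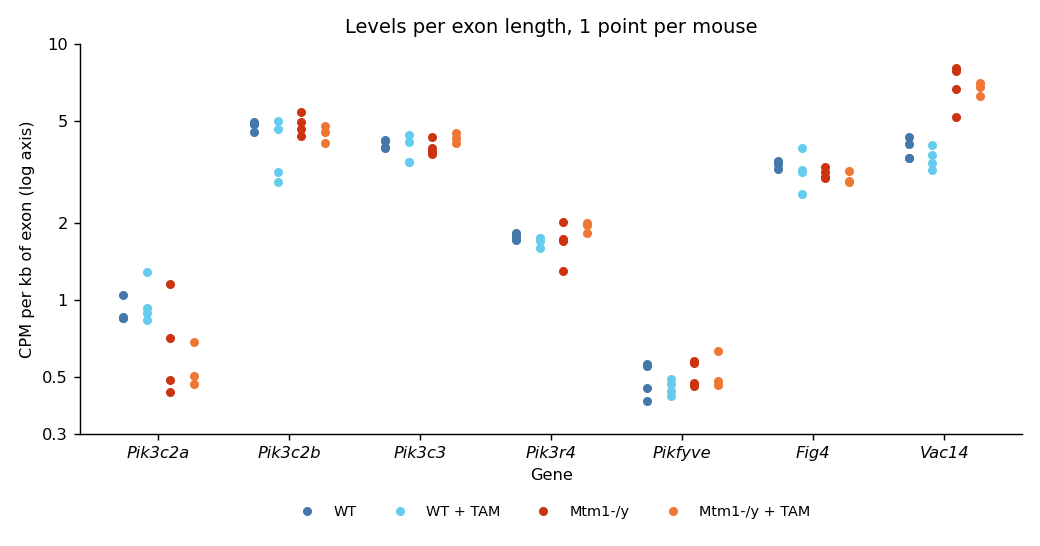
Level of each of the 7 transcripts in CPM per kilobase of exon (log axis), with 1 point per mouse and the 4 groups in colour. *Vac14* moved from rank 3 in WT at 3.89 to rank 1 in *Mtm1*-/y muscle at 6.95 CPM per kb, while *Pikfyve* had the lowest mean in each group on this scale.

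*Vac14* (ENSMUSG00000010936, chr8:110618585-110720398, plus strand, GRCm38) encodes the scaffold on which PIKfyve and Fig4 assemble. In WT mice it was at 30.3, 25.0, 25.0 and 28.2 CPM, and in untreated *Mtm1*-/y mice at 36, 54.8, 46.5 and 56.2 CPM. Every *Mtm1*-/y mouse was above every WT mouse, and *Mtm1*-/y replicate 1 was the lowest of its group. The means were 27.1 ± 2.60 and 48.4 ± 9.29 CPM, a log2 fold change of 0.83 (SE 0.13, 95% interval 0.57 to 1.1, edgeR adjusted p = 0.000246).

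Under tamoxifen *Vac14* was at 22.4, 23.8, 28.0 and 25.7 CPM in WT mice and at 43.6, 49.2 and 47.4 CPM in *Mtm1*-/y mice. The groups again did not overlap, and the lowest treated *Mtm1*-/y mouse was well above the highest treated WT mouse. The log2 fold change was 0.90 (SE 0.13, 95% interval 0.62 to 1.19, edgeR adjusted p = 0.000373). The call held in each of the 15 fits that left out 1 library in both genotype comparisons, with log2 fold changes from 0.75 to 0.95 untreated and 0.85 to 0.96 under tamoxifen.

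Tamoxifen did not detectably change *Vac14*. The log2 fold change was -0.05 in *Mtm1*-/y mice (95% interval -0.34 to 0.24, edgeR adjusted p = 0.964) and -0.12 in WT mice (95% interval -0.38 to 0.15, edgeR adjusted p = 0.779). The genotype difference with tamoxifen exceeded that without it by 0.07 on the log2 scale (95% interval -0.32 to 0.46, edgeR adjusted p = 0.914). Averaged over treatment, the genotype difference was 0.87 (SE 0.09, edgeR adjusted p = 4.85e-06).

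**Figure D2:**
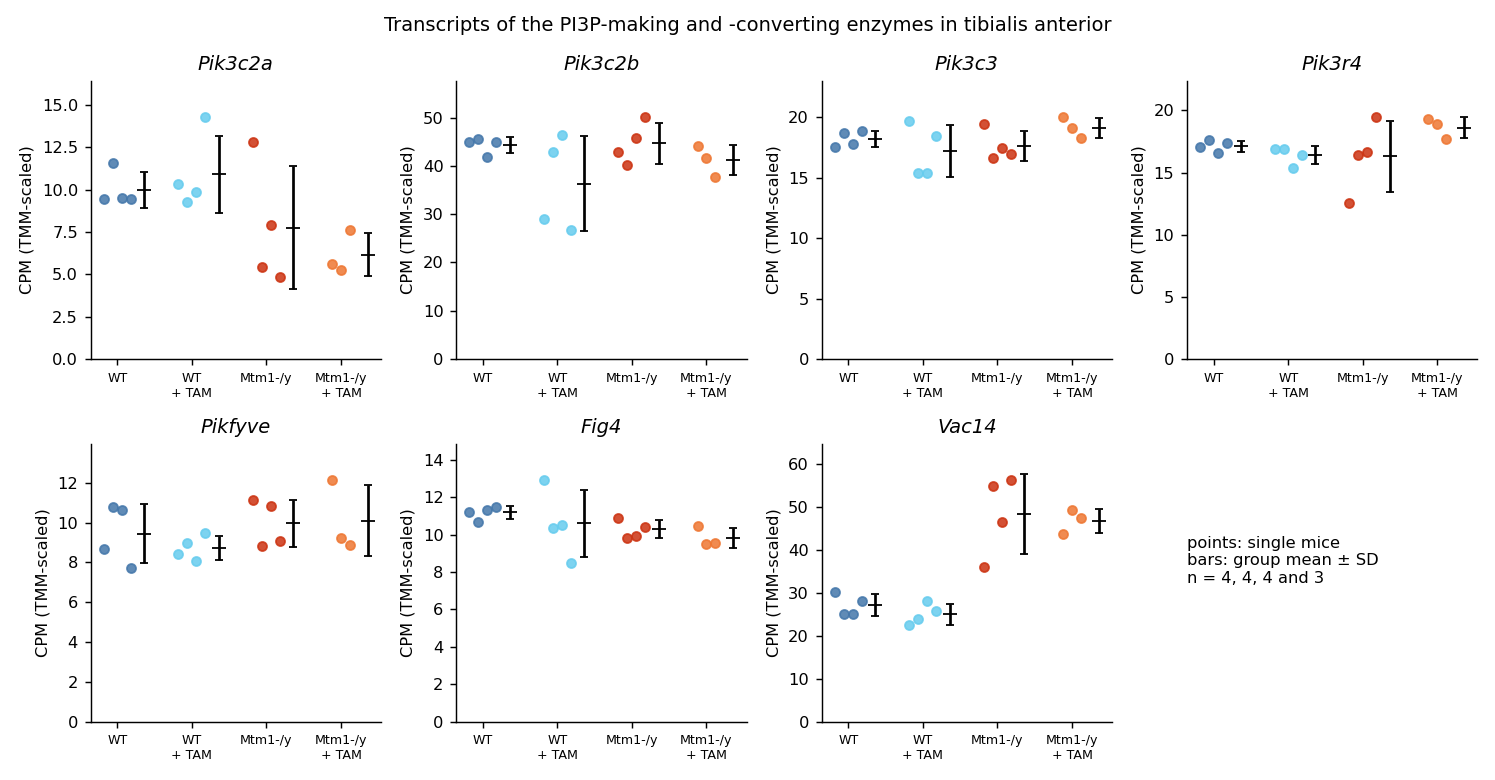
TMM-scaled CPM of each of the 7 genes in each of the 15 mice, 1 panel per gene with its own axis from 0; points are mice and bars are group means ± SD (n = 4, 4, 4 and 3). *Vac14* was between 22.4 and 30.3 CPM in the 8 WT mice and between 36 and 56.2 CPM in the 7 *Mtm1*-/y mice, and the *Pik3c2a* mean was lowest in *Mtm1*-/y + TAM, at 6.16 CPM.

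Since *Vac14* was the gene called in both genotype comparisons, the sequence around its start is shown. The RefSeq table of GRCm38.p6 holds a window of 300 bases, 250 before and 50 after the annotated start, for 6 of the 7 genes. The 250 bases before the start of *Vac14* (chr8:110618317-110618566, plus strand) carry the E-box CACCTG once on each strand, in capitals, and a stretch of 30 bases within the first exon (chr8:110618586-110618615, plus strand, in the 5′ UTR) holds a palindrome, in capitals.
Vac14 upstream: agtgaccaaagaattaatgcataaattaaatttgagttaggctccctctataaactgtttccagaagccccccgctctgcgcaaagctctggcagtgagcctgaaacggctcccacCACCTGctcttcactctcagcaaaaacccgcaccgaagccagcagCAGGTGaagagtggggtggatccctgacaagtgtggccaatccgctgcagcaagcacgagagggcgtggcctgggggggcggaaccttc
Vac14 5′ UTR site: tgctcgcggcGTCACGTGACctgagtaaca
The palindrome GTCACGTGAC, which is the E-box CACGTG with 2 bases on each side, is the CLEAR element known as a binding sequence of TFEB, a transcription factor of lysosomal genes. The bases on each side of CACGTG were read from the *Vac14* window itself, so the match of the palindrome there was fixed in advance. The palindrome occurred in 0.326% of the 32851 windows searched on both strands, and among the 6 genes with a window in no other. CACGTG itself was in 7.15% of windows and again only in that of *Vac14*. CACCTG was in 20.2% of windows and in those of *Pik3c2b*, *Pik3r4* and *Vac14*. CCAAT was in 37.4% of windows and in all 6, GGGCGG was in 35.7% and in 5 of the 6, and CAGCTG was in 16.3% and in none of the 6. The motifs were chosen after the values had been seen, and a match describes the letters only.

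*Pik3c2a* (ENSMUSG00000030660, chr7:116337265-116443449, minus strand, GRCm38) encodes a class II kinase with known roles in clathrin-mediated endocytosis and in endothelial cells. It had 106 to 489 counts per library and the widest spread of the 7, with a biological coefficient of variation of 25.1% against 10.8% to 15.6% for the others. Under tamoxifen it was at 10.3, 9.28, 9.87 and 14.3 CPM in WT mice and at 5.62, 5.24 and 7.63 CPM in *Mtm1*-/y mice. All 3 *Mtm1*-/y + TAM mice were below all 4 WT + TAM mice. The means were 10.9 ± 2.26 and 6.16 ± 1.28 CPM, a log2 fold change of -0.82 (SE 0.28, 95% interval -1.42 to -0.23, edgeR adjusted p = 0.0492).

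That call lay at the threshold. It was kept without untreated *Mtm1*-/y replicate 1, 2 or 4 and lost without any 1 of the other 12 libraries, with log2 fold changes from -1.01 to -0.67 and adjusted p-values from 0.00631 to 0.174. With the replicate number as a block, although the numbers were not taken to pair the mice, the log2 fold change was -0.85 (edgeR adjusted p = 0.0748).

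Without tamoxifen *Pik3c2a* was at 9.45, 11.6, 9.52 and 9.42 CPM in WT mice and at 12.8, 5.40, 7.91 and 4.86 CPM in *Mtm1*-/y mice. 3 of the 4 *Mtm1*-/y mice were below all WT mice and *Mtm1*-/y replicate 1 was above them all, so the groups overlapped. The log2 fold change was -0.36 (SE 0.25, 95% interval -0.90 to 0.17, edgeR adjusted p = 0.291). Without *Mtm1*-/y replicate 1 it was -0.72 (edgeR adjusted p = 0.0117). The same library held the lowest *Vac14* value of the *Mtm1*-/y mice and the lowest *Pik3r4* value of all mice, 12.6 CPM.

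Averaged over treatment, *Pik3c2a* was lower in *Mtm1*-/y mice by a log2 fold change of -0.59 (SE 0.19, edgeR adjusted p = 0.0202). This call was lost without *Mtm1*-/y + TAM replicate 2 (log2 fold change -0.54, edgeR adjusted p = 0.0569). Tamoxifen itself gave log2 fold changes of -0.33 in *Mtm1*-/y mice (95% interval -0.92 to 0.26, edgeR adjusted p = 0.884) and 0.13 in WT mice (95% interval -0.40 to 0.67, edgeR adjusted p = 0.889). The genotype differences with and without tamoxifen were not shown to differ (-0.46 on the log2 scale, edgeR adjusted p = 0.671). That difference rested largely on *Mtm1*-/y replicate 1, without which it was -0.10 (edgeR adjusted p = 0.946), and it was -0.13 without both libraries that stood apart.

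Endothelial markers were lower in *Mtm1*-/y mice, as was the mean of *Pik3c2a*, which was not called untreated. How closely they followed *Pik3c2a* over single mice was not tested. The summed level of *Pecam1*, *Cdh5*, *Kdr* and *Tek* was 357 to 471 CPM in WT, 229 to 437 in WT + TAM, 180 to 248 in *Mtm1*-/y and 193 to 244 in *Mtm1*-/y + TAM, with no marker at 0 in any group. All 4 were called lower in *Mtm1*-/y than in WT mice, where 14.9% of all genes were called lower. Under tamoxifen all 4 had lower means in *Mtm1*-/y + TAM than in WT + TAM mice and 3 of the 4 were called, where 9.46% of all genes were called lower; *Kdr* was not, at 39.4 against 81.2 CPM. In whole muscle, fewer endothelial cells and less RNA per cell cannot be told apart. Relative to this sum, *Pik3c2a* differed between *Mtm1*-/y + TAM and WT + TAM by -0.10 on the log2 scale (two-sided exact permutation p = 0.771), and between *Mtm1*-/y and WT by 0.56 (exact permutation p = 0.286). Leaving out 1 library at a time gave -0.27 to 0.09 under tamoxifen, in both directions, and 0.28 to 0.83 untreated (unadjusted exact permutation p from 0.0286 to 0.571). The value of 0.09 was that without WT + TAM replicate 1, which stood apart on the principal components. Its marker sum was 229 CPM, against 377 to 437 in the rest of its group, with *Pik3c2a* at 10.3 CPM. *Vac14* relative to the sum was higher in all *Mtm1*-/y mice, by 1.85 on the log2 scale untreated and 1.64 under tamoxifen (each exact permutation p = 0.0286, the smallest the groups allow, and 0.114 adjusted over the 8 tests). These values include the lower marker sum. The log2 fold changes of *Vac14* itself were 0.83 and 0.90. Untreated, *Vac14* was higher and the sum lower in *Mtm1*-/y mice, each without overlap, so the separation of the ratio was fixed in advance. The ratios to the sum were added after the data had been seen. *Mtm1*-/y replicate 1, the mouse with 12.8 CPM of *Pik3c2a*, had an endothelial sum of 207 CPM, within the range of its group.

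Satellite cell markers also moved with genotype. The summed satellite cell markers were at 7.18 to 10.4 CPM in WT, 7.4 to 10.5 in WT + TAM, 1.7 to 3.56 in *Mtm1*-/y and 2.44 to 2.9 in *Mtm1*-/y + TAM mice, with 2 of 3 called lower in both genotype comparisons. Untreated, 2 of 4 Schwann markers, 1 of 6 macrophage markers and 1 of 5 fibroblast markers were called higher and 2 of 7 fibre markers lower, where 15.5% of all genes were called higher and 14.9% lower. Under tamoxifen 1 of 7 fibre markers was called lower and none of the other 3 lists had a call. The summed ranges of the macrophage and fibroblast markers overlapped between *Mtm1*-/y and WT mice (26 to 68.8 against 23.4 to 41 CPM, and 324 to 1320 against 973 to 1260 CPM). No adipocyte or red blood cell marker, of 3 each, was called in either. The part of these markers in the *Vac14* and *Pik3c2a* results was not tested.

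**Figure D3:**
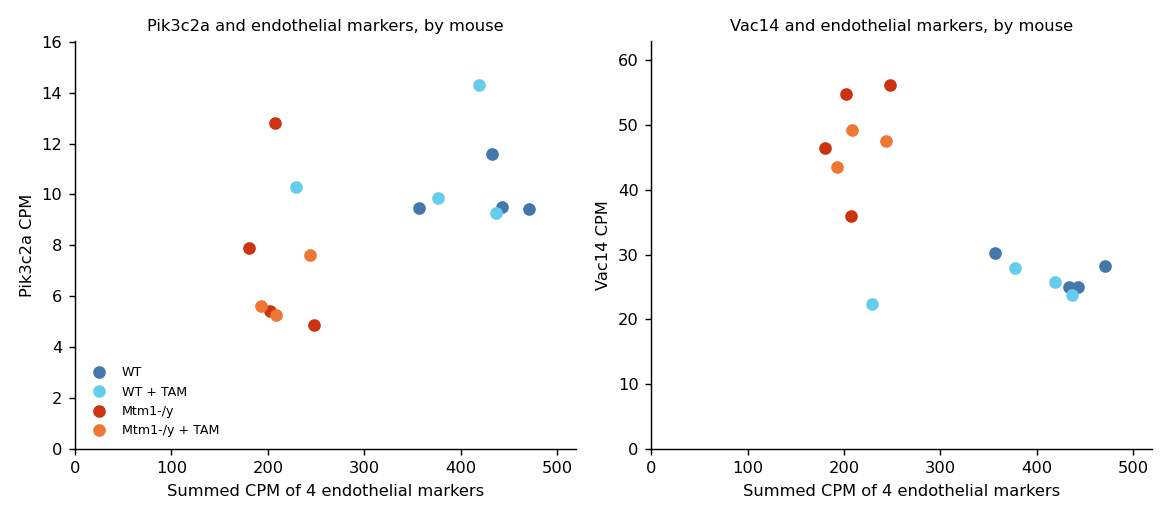
CPM of *Pik3c2a* and *Vac14* (vertical axes) against the summed CPM of the 4 endothelial markers (horizontal axes), with 1 point per mouse coloured by group. The *Mtm1*-/y mice lay at 180 to 248 CPM of the markers, the WT + TAM mice at 229 to 437 and the untreated WT mice at 357 to 471.

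*Pik3c2b* encodes the second class II kinase, which has been studied as a genetic modifier of *Mtm1* deficiency in mice. It was the most abundant of the 7 in untreated WT muscle in CPM and in CPM per kb of exon. By the length of the longest transcript it was level with *Pik3c3* there, both at 5.59 CPM per kb. On that length it was below *Pik3c3* in WT + TAM, at 4.57 against 5.29. It was at 45.0, 45.6, 41.8 and 45.0 CPM in WT mice and at 42.8, 40.2, 45.7 and 50.1 CPM in *Mtm1*-/y mice, and the groups overlapped. The log2 fold change was 0.01 (95% interval -0.30 to 0.32, edgeR adjusted p = 0.962), which bounds a difference at 0.814 to 1.25-fold. In WT + TAM mice the values fell into a low pair, 29.1 and 26.7 CPM, and a high pair, 42.9 and 46.4 CPM, whereas the *Mtm1*-/y + TAM mice were at 44.0, 41.7 and 37.7 CPM. The log2 fold change of WT + TAM against WT was -0.29 (95% interval -0.60 to 0.02, edgeR adjusted p = 0.475). Leaving out 1 library moved it between -0.43 (without WT + TAM replicate 3) and -0.17 (without WT + TAM replicate 4), and it was -0.20 without WT + TAM replicate 1. *Pik3c2g*, the remaining class II gene, had 0 to 2 counts per library and was not tested.

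*Pik3c3*, the class III catalytic subunit, and *Pik3r4*, its regulatory subunit, were at closely similar CPM levels. Per kilobase of exon they differed, at 4.07 and 1.77 CPM per kb in WT mice (5.59 and 3.48 by the longest transcript). *Pik3c3* was at 18.2 ± 0.662 CPM in WT, 17.2 ± 2.18 in WT + TAM, 17.6 ± 1.24 in *Mtm1*-/y and 19.1 ± 0.85 in *Mtm1*-/y + TAM mice, with overlapping groups in each comparison. Its log2 fold change between *Mtm1*-/y and WT was -0.05 (95% interval -0.24 to 0.15, edgeR adjusted p = 0.744), the tightest interval of the 7, and under tamoxifen 0.15 (edgeR adjusted p = 0.319).

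*Pik3r4* was at 17.1 ± 0.442 CPM in WT, 16.4 ± 0.71 in WT + TAM, 16.3 ± 2.83 in *Mtm1*-/y and 18.6 ± 0.825 in *Mtm1*-/y + TAM mice. Under tamoxifen the 3 *Mtm1*-/y mice, at 19.3, 18.9 and 17.7 CPM, were all above the 4 WT mice at 16.9, 16.9, 15.4 and 16.4 CPM. The difference was small, with a log2 fold change of 0.18 (SE 0.11, edgeR adjusted p = 0.282), and it did not pass the test. The *Pik3r4* to *Pik3c3* count ratio differed between genotypes by -0.04 on the log2 scale untreated and 0.03 under tamoxifen (two-sided exact permutation p = 0.971 and 0.914).

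*Pikfyve*, the kinase that turns PI3P into PI(3,5)P2, was at 9.45 ± 1.5 CPM in WT, 8.73 ± 0.606 in WT + TAM, 9.97 ± 1.18 in *Mtm1*-/y and 10.1 ± 1.79 in *Mtm1*-/y + TAM mice. Its log2 fold change between genotypes was 0.08 untreated (95% interval -0.21 to 0.37, edgeR adjusted p = 0.691) and 0.20 under tamoxifen (edgeR adjusted p = 0.367). *Fig4*, the phosphatase of the complex, was at 11.2 ± 0.353, 10.6 ± 1.81, 10.3 ± 0.496 and 9.83 ± 0.532 CPM in the same 4 groups. Its log2 fold changes were -0.12 untreated (95% interval -0.36 to 0.11, edgeR adjusted p = 0.427) and -0.11 under tamoxifen (edgeR adjusted p = 0.578). The scaffold was called higher while neither enzyme of the same complex passed the test.

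That contrast within the complex was measured directly as count ratios, in which library scaling cancels. *Vac14* to *Pikfyve* was higher in *Mtm1*-/y mice by 0.74 on the log2 scale untreated (exact permutation p = 0.0857) and by 0.71 under tamoxifen (exact permutation p = 0.0286, groups not overlapping). *Pik3c2a* to *Pik3c3* was lower by 0.98 under tamoxifen (difference -0.98, exact permutation p = 0.0286, groups not overlapping). Of the 16 ratio tests, 4 ratios in 4 comparisons, none passed at an adjusted p under 0.05, the smallest being 0.229, and with 3 or 4 mice a group no p under 0.0286 can be reached. After adjustment a ratio could have passed only if most of the 16 tests had reached that smallest p. The lack of a pass therefore says little about these ratios.

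**Figure D4:**
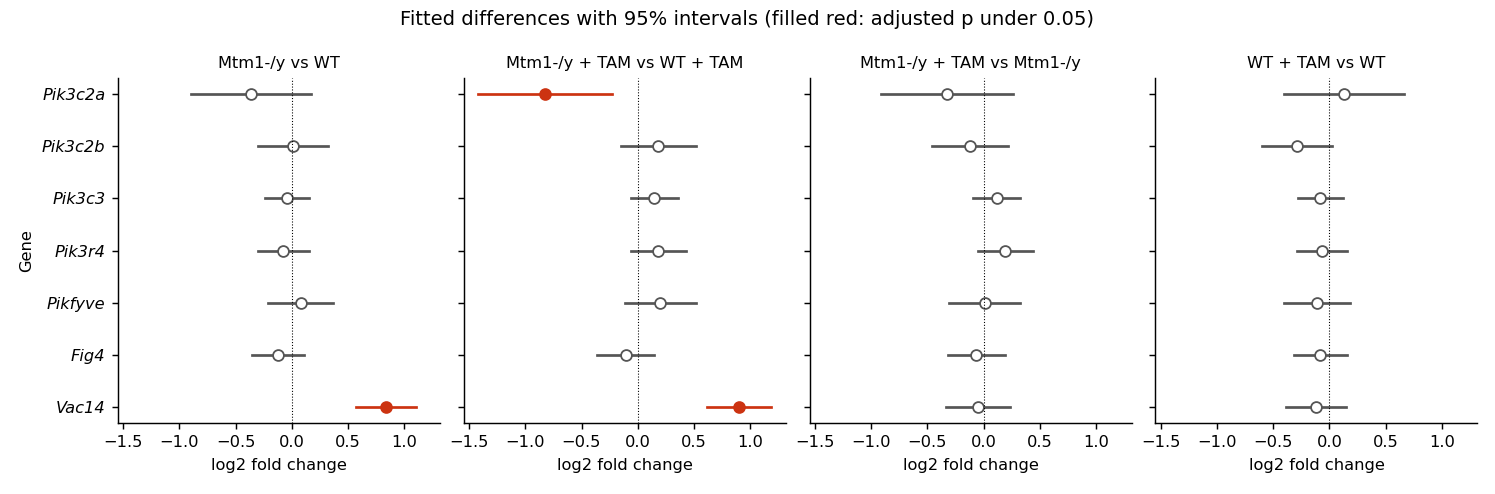
Log2 fold changes of the 7 genes in the 4 group comparisons, with 95% intervals from the edgeR fit. *Vac14* lay at 0.83 and 0.90 in the genotype comparisons, *Pik3c2a* at -0.82 under tamoxifen, and all intervals of the tamoxifen comparisons reached 0.

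Counted together, 1 of the 7 genes was called between *Mtm1*-/y and WT mice (14.3%), against 30.4% of all genes tested. Under tamoxifen 2 of the 7 were called (28.6%), against 20.1% of all genes. Counted by direction, the background was 15.5% higher and 14.9% lower untreated, and 10.6% higher and 9.46% lower under tamoxifen. Averaged over treatment, *Vac14* and *Pik3c2a* were called, 2 of the 7 (28.6%), against 39.5% of all genes (19.9% higher and 19.6% lower). With 7 genes, nothing particular to them can be read from these shares. In *Mtm1*-/y + TAM against *Mtm1*-/y mice 0 of the 7 were called against 0.0129% of all genes, which was 2 genes (861 at an unadjusted p under 0.05, and 4 by DESeq2). In WT + TAM against WT mice 0 of the 7 were called against 0.309%, which was 48 genes (1757 at an unadjusted p under 0.05, and 298 by DESeq2). The interaction called 0 genes (1650 at an unadjusted p under 0.05, and 74 by DESeq2). Groups did not overlap for 1 of the 7 untreated, against 30.5% of all genes, and for 3 of the 7 under tamoxifen (*Vac14*, *Pik3r4* and *Pik3c2a*), against 31.6%. They overlapped for all 7 between *Mtm1*-/y + TAM and *Mtm1*-/y mice, where 5.71% of all genes did not overlap, and between WT + TAM and WT mice, where 8.08% did not. The median log2 fold change of the 7 was -0.05 untreated and 0.18 under tamoxifen, where the median over all genes was 0.00 and -0.02.

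The genes whose levels ran most like each of the 7 over the 15 libraries are described by Pearson's r and Spearman's rho, without a test, since the libraries share genotype and scaling. For *Vac14* they were *Cacnb1* (r = 0.978, rho = 0.893), a calcium channel subunit of the muscle triad, *Arl6ip5* (r = 0.973, rho = 0.857) and *Fbxl13* (r = 0.968, rho = 0.904). *Cacnb1* had log2 fold changes between genotypes of 0.89 and 0.90, close to those of *Vac14*. Those of *Arl6ip5* (1.13 and 1.33) and *Fbxl13* (4.9 and 5.9) were larger, so a high r did not mean a difference of like size. For *Pik3c2a* they were *Flt1* (r = 0.958, rho = 0.893), a VEGF receptor of endothelial cells, *Fcho2* (r = 0.944, rho = 0.896), an adaptor of clathrin-coated pits, and *Epas1* (r = 0.938, rho = 0.825), a hypoxia factor abundant in endothelium. Unlike the 4 endothelial markers, *Flt1* (-0.36, edgeR adjusted p = 0.242) and *Epas1* (-0.34, edgeR adjusted p = 0.149) were not called untreated. Under tamoxifen both were called lower (-0.94 and -0.78). *Fcho2* was called in neither genotype comparison. For *Pikfyve* the first was *Atg3* (r = 0.849, rho = 0.85), an autophagy enzyme, and for *Pik3c2b* it was *Irs1* (r = 0.863), whose rho was 0.521, followed by *Mink1* and *Zc3hc1* (r = 0.815 and 0.814). *Pikfyve* had *Aldoc* and *Tent2* next (r = 0.802 and 0.782). For *Pik3r4* the order was *Msantd4*, *Zfp60* and *Taf7* (r = 0.935, 0.889 and 0.886), for *Fig4* it was *Gpr161*, *Spout1* and *Zfp862-ps* (r = 0.891, 0.868 and 0.859), and for *Pik3c3* it was *Mybl1*, *Isg20l2* and *Atad3aos* (r = 0.803, 0.794 and 0.792). None of these 21 genes was one of the 7. Among the 7 themselves the strongest relation was between *Pik3c2a* and *Vac14* (r = -0.809). After group means had been removed it was -0.707, and *Pik3c2a* with *Pik3r4* was then the strongest (r = -0.773, against -0.640 over all libraries). *Mtm1*-/y replicate 1 had the highest *Pik3c2a* value of its group, 12.8 CPM, and its lowest *Pik3r4* and *Vac14* values, 12.6 and 36 CPM. These correlations were not computed without that library.

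Genes that act around the 7 were counted by list, beside 30.4% of all genes called untreated and 20.1% under tamoxifen. Nothing particular to a list can be read from counts this small. Of 7 tested partners of the class III kinase, 2 were called higher in *Mtm1*-/y than in WT mice and none lower: *Uvrag* (log2 fold change 0.50, SE 0.17, edgeR adjusted p = 0.0334) and *Ambra1* (0.38, SE 0.13, edgeR adjusted p = 0.0356), both regulators of the Vps34 complex. None of the 7 was called under tamoxifen. Without the 2 libraries that stood apart, *Uvrag* (0.28, edgeR adjusted p = 0.101) and *Ambra1* (0.21, edgeR adjusted p = 0.0858) were no longer called untreated, and *Uvrag* was called under tamoxifen (0.39, edgeR adjusted p = 0.0455). The median log2 fold change of the 7 with all libraries was 0.24 untreated and 0.10 under tamoxifen. Of 9 class I PI 3-kinase subunits, *Pik3r1* was called higher (0.99, edgeR adjusted p = 0.0479) and *Pik3r6* lower (-1.04, edgeR adjusted p = 0.00285), and none under tamoxifen. Without the 2 libraries *Pik3r1* was not called (0.67, edgeR adjusted p = 0.0942), whereas *Pik3r6* (-0.78, edgeR adjusted p = 0.00734) and *Pik3ca* (-0.40, edgeR adjusted p = 0.0482) were called lower under tamoxifen. The medians of the 9 with all libraries were -0.01 and 0.03.

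Of 10 PI 4-kinases and PIP kinases, 2 were called higher untreated, the type II PI 4-kinases *Pi4k2a* (0.71, edgeR adjusted p = 0.000406) and *Pi4k2b* (0.84, edgeR adjusted p = 0.0057), and 1 lower, *Pip5k1c* (-0.26, edgeR adjusted p = 0.0435). Under tamoxifen *Pi4k2a* and *Pi4kb* were called higher and *Pip5k1c* and *Pi4ka* lower. The medians were 0.11 untreated and -0.12 under tamoxifen. Of 14 myotubularins, 1 was called higher and 1 lower untreated, *Mtmr11* and the targeted *Mtm1*. Under tamoxifen *Mtmr11* was higher and 4 were lower, among them *Mtm1*, *Mtmr3* (-0.46, edgeR adjusted p = 0.00264) and *Mtmr10* (-0.50, edgeR adjusted p = 0.0079). The medians were -0.05 and -0.23.

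Of 14 phosphoinositide 4- and 5-phosphatases, *Inpp5j* was called lower untreated (-1.78, edgeR adjusted p = 0.000586) and *Inpp5k* higher (0.46, edgeR adjusted p = 0.023). With all libraries only *Inpp5b* of these 14 was called under tamoxifen, lower (-0.58, edgeR adjusted p = 0.00461). The medians were 0.02 and -0.18. Of 7 lysosomal channels and TFEB family factors none was called untreated. Under tamoxifen *Tpcn1*, a channel opened by PI(3,5)P2, was lower (-0.57, edgeR adjusted p = 0.00658) and *Tfe3* higher (0.43, edgeR adjusted p = 0.00798), with medians of 0.01 in both comparisons. Without the 2 libraries that stood apart, the phosphatases had 6 calls untreated and 4 under tamoxifen. Those under tamoxifen were all lower and included *Inpp5j* (-0.77, edgeR adjusted p = 0.032). The channels and TFEB family then had 2 and 3. *Tfeb* was called higher untreated (0.53, edgeR adjusted p = 0.0016) but was not called under tamoxifen (0.09). *Mitf*, of the same family, was called lower untreated (-0.43, edgeR adjusted p = 0.00643) and under tamoxifen (-0.52, edgeR adjusted p = 0.00355). *Tpcn1* and *Tfe3* kept their calls under tamoxifen. The counts of the PI 4-kinases and PIP kinases and of the myotubularins stayed at 3 and 4 and at 2 and 5. With or without these libraries, no gene of these 6 lists was called between treated and untreated mice of either genotype or in the interaction.

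**Figure D5:**
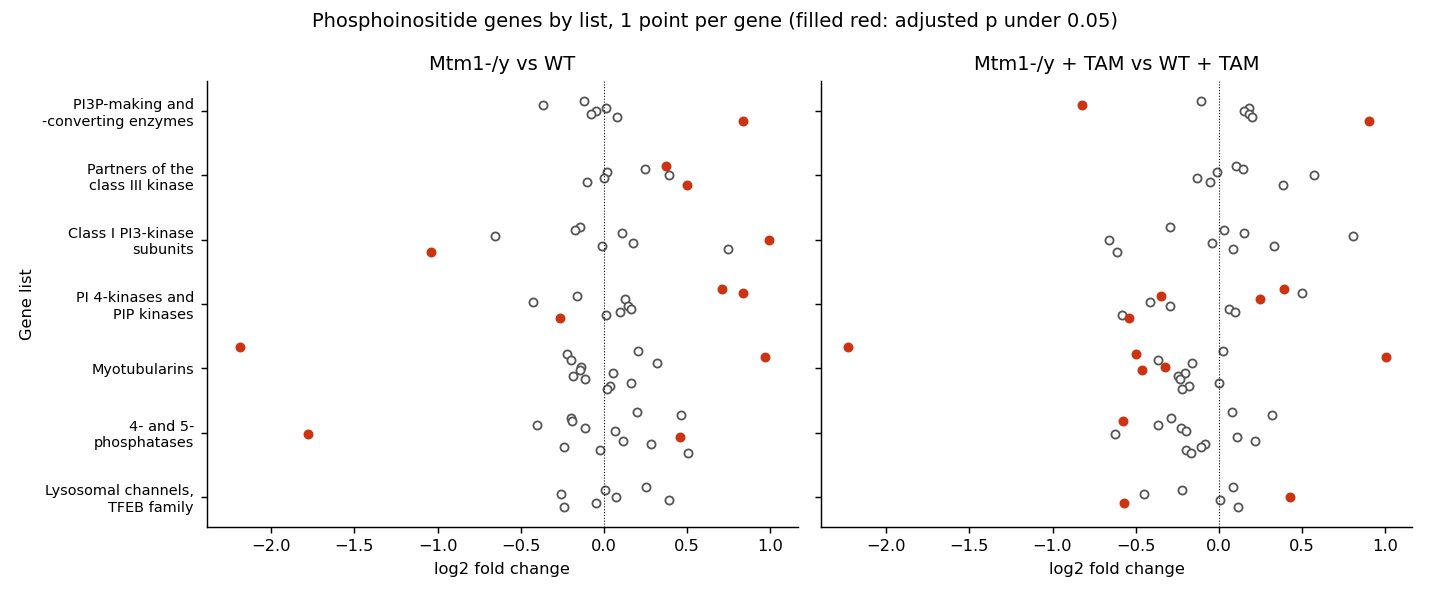
Log2 fold changes of the genes in each pathway list between *Mtm1*-/y and WT mice, untreated and under tamoxifen, with called genes marked. The top line holds the 7 genes; filled points passed an adjusted p under 0.05, and the point farthest to the left is *Mtm1*, at -2.19 and -2.23.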

How the data were processed

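RNA from the tibialis anterior of 15 mice was prepared with a stranded mRNA kit. The deposited values are raw counts per gene, made by the authors; the submitters' processing notes list STAR 2.5.3a, HTSeq 0.6.1p1, Bowtie2 2.2.8 and cutadapt 1.10, without their roles, and the build GRCm38 (mm10). For the annotation release, the strand setting and any filter, nothing is given in those sources. If strand was ignored, reads from overlapping antisense genes could affect the count of a gene, by an amount not known here. *Gm44777*, antisense to *Pik3c2a*, had 3 to 22 counts of its own per library, and *Gm28609*, antisense to *Pik3c2b*, had 18 to 67.

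Identifiers were matched to GENCODE M21. Genes were kept by filterByExpr with a minimum count of 10. One model of the 4 group means was fitted to all 15 libraries with edgeR 4.0.16 (TMM, robust quasi-likelihood F-test, 11 residual degrees of freedom) under R 4.3.3, and p-values were adjusted by the Benjamini-Hochberg method. Count ratios were compared by two-sided exact permutation. The pipeline was tested on simulated data.

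All 7 genes are described in each comparison. Of each other list, at most the 4 called genes with the lowest adjusted p are named, and for each of the 7 the 3 genes with the highest Pearson r. The members and lists were chosen with earlier results of these data known. Alternatives were other scaling factors, filters, a fold threshold, a replicate block, limma 3.58.1 voom, DESeq2 1.42.0, fits of the compared groups only and leaving out libraries. The ratios to endothelial markers, the motif search and the pathway lists without 2 libraries were added after the data had been seen. Same-numbered mice had correlations of their deviations of -0.113 to 0.306 over 21 pairs, with 6 over 0.1. Mice of different groups and numbers had -0.338 to 0.214, and 5 of the 15 libraries matched best with their own number. This does not settle whether the numbers pair mice, and they were not taken to. Counts limit the precision, and *Pik3c2a* had the fewest, from 106.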

Additional observations from a re-analysis of the deposited data

Results flagged for a closer look

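Within groups of 4 mice, 2 values stood apart from the other 3 by Dixon's criterion. *Pik3c2a* in WT replicate 2 was at 11.6 CPM against 9.42 to 9.52 CPM in the other WT mice (gap over range 0.955). *Pik3c2b* in WT replicate 3 was at 41.8 CPM against 45.0 to 45.6 CPM (gap over range 0.835). The criterion was applied to 21 groups, and chance marks about 1 group in 20.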

How the results depend on the processing

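*Vac14* kept its direction and its call in both genotype comparisons under each alternative except a threshold of 1 on the absolute log2 fold change, which its values of 0.8344, 0.9023 and 0.8683 (averaged) do not reach. That threshold also ended the calls of *Pik3c2a* (-0.8232 under tamoxifen and -0.5935 averaged) and left 1536, 934 and 1359 genes in the 2 genotype comparisons and their average. The *Pik3c2a* call under tamoxifen was also lost with no filter (-0.8156), limma-voom (-0.8054) and the replicate block (-0.8464), which ended no other member's call. The cause was not tested.

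Leaving out WT + TAM and *Mtm1*-/y replicate 1 together gave *Pik3c2a* a call untreated (-0.7218) and turned it to 0.03457 for tamoxifen in *Mtm1*-/y. It also turned *Pik3r4* untreated to 0.03314, *Fig4* under tamoxifen to 0.00174 and the *Vac14* interaction to -0.09877. Tamoxifen then called 7 genes in *Mtm1*-/y mice and 347 in WT mice, and the interaction 14. Tamoxifen in *Mtm1*-/y called 1 gene with no filter, 0 with at least 50 counts, 1 with only the groups compared and 4 by DESeq2. In WT mice it called 15 genes with at least 50 counts and 298 by DESeq2. The interaction called 2 with no filter and 74 by DESeq2. Values near 0 changed sign: *Pik3c2b* untreated to -0.03545 with upper-quartile factors, *Pikfyve* for tamoxifen in *Mtm1*-/y to -0.004798 (RLE factors), -0.008516 (no filter), -0.02295 (replicate block), -0.03358 (limma-voom) and -0.01145 (DESeq2), and the *Fig4* interaction to -0.005316 (RLE factors) and -0.009129 (DESeq2). Longest-transcript lengths moved 2, 4, 2 and 6 genes in rank.

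Leaving out 1 library at a time gave these ranges. Untreated genotype values were -0.7214 to -0.1897 for *Pik3c2a*, -0.04686 to 0.05985 for *Pik3c2b*, -0.1736 to 0.03254 for *Pik3r4* and -0.006576 to 0.1497 for *Pikfyve*. Under tamoxifen they were -1.012 to -0.6692 for *Pik3c2a* and -0.1976 to 0.002335 for *Fig4*, with 1656 (without *Mtm1*-/y + TAM replicate 2) to 4097 genes called. Averaged, *Pik3c2a* was at -0.7718 to -0.5064. For tamoxifen in *Mtm1*-/y mice they were -0.5157 to 0.03232 for *Pik3c2a*, -0.1396 to 0.09308 for *Pikfyve* and -0.1667 to 0.03255 for *Vac14*, with 0 (each without 1 of 3 libraries: untreated replicate 3, treated replicates 2 and 3) to 5 genes called (without WT + TAM replicate 1). In WT mice they were -0.02203 to 0.2095 for *Pik3c2a*, -0.4325 to -0.1686 for *Pik3c2b* and -0.1887 to 0.01181 for *Fig4*, with 11 (without WT replicate 1) to 143 called (without *Mtm1*-/y replicate 1). For the interaction they were -0.6479 to -0.1007 (without *Mtm1*-/y replicate 1) for *Pik3c2a*, -0.0263 to 0.2078 for *Pikfyve*, -0.07526 to 0.1246 for *Fig4* and -0.05047 to 0.1486 for *Vac14*, with 0 to 7 called (without WT + TAM replicate 1). Log2 ratios of *Pik3r4* to *Pik3c3* ran from -0.153 to 0.122, -0.0263 to 0.0921, -0.0737 to 0.201 and -0.0438 to 0.0746 in the genotype comparisons and then tamoxifen in *Mtm1*-/y and WT mice. For *Fig4* to *Pikfyve* they ran from -0.135 to 0.0269 and -0.109 to 0.148, and for *Vac14* to *Pikfyve* from -0.228 to 0.152 and -0.12 to 0.0995, in the latter 2.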
